A study of Mus musculus with 8 samples.

Results

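Prox1, Zbtb20, Wfs1 and C1ql2 were followed in RNA sequencing of the mouse cortex at postnatal day 3 (P3), as 4 genes by which regions of the hippocampus are usually told apart. They were taken by matching these symbols to the Ensembl identifiers of the files, which matched for all 4 of them among the 48709 genes listed in each file. All 4 were among the 16525 genes with enough counts to be tested. Samples came from 4 dcKO_hGFAP-Cre mice and 4 control mice on the C57BL/6J background, and what the labels call cortex is the dorsal telencephalon (dTel) in the methods. The dcKO_hGFAP-Cre mice were BAF155 fl/fl; BAF170 fl/fl; hGFAP-Cre, so that both scaffolding subunits of the BAF chromatin remodelling complex were deleted where a human GFAP promoter drives Cre, which in the dTel is the radial glia and the cells made from them. The methods give the controls as BAF155 fl/+; BAF170 fl/+ with Cre, whereas the labels call them control or wild type, and both groups therefore carry Cre if the methods apply. The libraries held between 21126713 and 31805395 counts in the controls and between 22002784 and 32110285 in the mutants. Neither the labels nor the methods say whether the hippocampus was part of the dissected tissue, and the mutants are described as dying soon after birth.

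The hippocampus arises at the medial edge of the dTel, next to the cortical hem, a signalling centre that releases Wnt proteins. Its fields are the dentate gyrus, whose granule cells are the entry of the circuit, and CA3, CA2 and CA1, the fields of pyramidal neurons. Prox1 encodes a homeodomain transcription factor that granule cells need to keep their identity, and it is also made by interneurons of the caudal ganglionic eminence (CGE), thalamic neurons and lymphatic vessels. C1ql2 encodes a secreted C1q-like protein that granule cells release at the synapses of their mossy fibres. Zbtb20 encodes a zinc finger repressor of the hippocampal primordium and its pyramidal neurons, later also made by astrocytes. Wfs1 encodes wolframin, a membrane protein of the endoplasmic reticulum that marks CA1 pyramidal neurons and is also made in the ventral striatum and other parts of the forebrain.

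Of the 4 genes, only Wfs1 passed the test, and it was about 2-fold higher in dcKO_hGFAP-Cre cortex. Prox1, C1ql2 and Zbtb20 did not pass it. That was 1 gene of 4, beside 37.5% of all 16525 genes tested that passed (18.6% higher and 18.9% lower in dcKO_hGFAP-Cre), so the count itself does not set these genes apart. The counts of the gene lists below are to be read beside these shares of all genes. With library totals in place of TMM scaling the shares were 27.7% higher and 12.7% lower. Expression is given below as CPM, the count of a gene after scaling all libraries to the same TMM-normalized size, and each gene was tested with edgeR's quasi-likelihood test with p-values adjusted by the Benjamini-Hochberg method over all genes tested, with 0.05 as threshold. As a check of the labels, Smarcc1 and Smarcc2, which encode BAF155 and BAF170, were lower in every dcKO_hGFAP-Cre sample than in every control, with log2 fold changes of -0.97 (SE 0.08) and -0.77 (SE 0.08) and transcripts that remained at 51.1% and 58.7% of control.

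**Figure D1:**
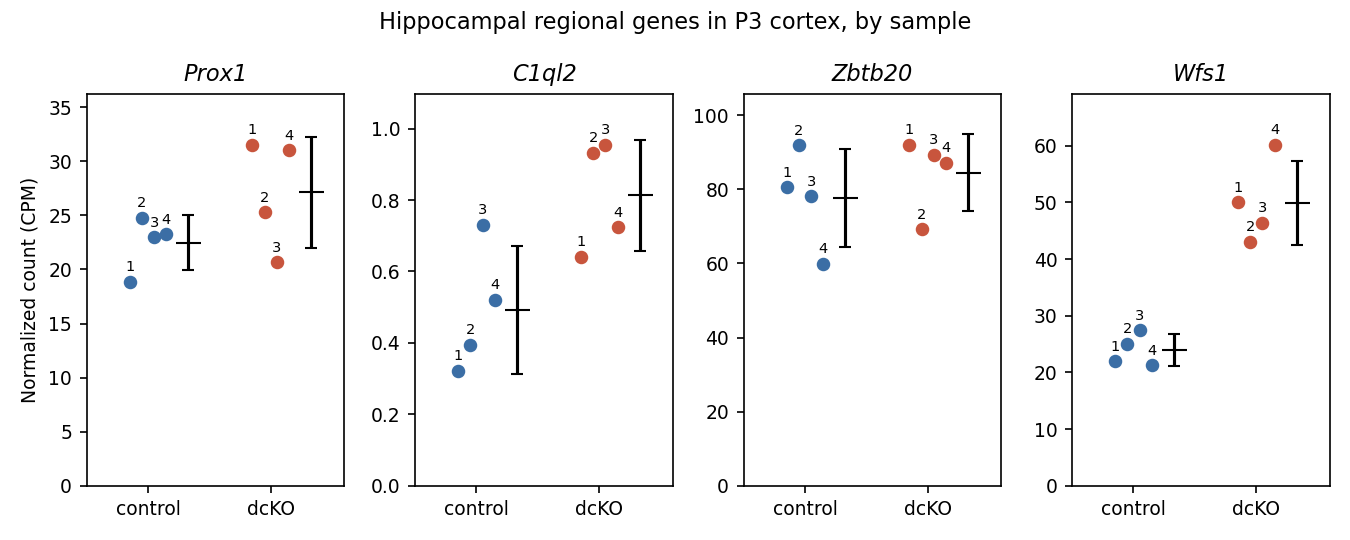
Normalized counts (CPM, linear axes from 0) of Prox1, C1ql2, Zbtb20 and Wfs1 in each sample, with points numbered by replicate and bars for the mean and SD of 4 control (blue) and 4 dcKO_hGFAP-Cre (red, dcKO) samples. Wfs1 lies between 21.3 and 27.4 CPM in control and between 43.1 and 60.2 CPM in dcKO_hGFAP-Cre, whereas the groups overlap for the other 3 genes.

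Wfs1 (ENSMUSG00000039474; mm10 chr5:36966104-36989205, minus strand) measured 22.0, 25.1, 27.4 and 21.3 CPM in control replicates 1 to 4. In dcKO_hGFAP-Cre replicates 1 to 4 it measured 50.1, 43.1, 46.4 and 60.2 CPM. Every mutant was above every control, as for 16.7% of all genes tested, and groups without overlap in either direction were found for 34.4%. The means were 23.9 ± 2.85 CPM in control and 49.9 ± 7.42 CPM in dcKO_hGFAP-Cre (SD, n = 4 each). The log2 fold change was 1.06 (SE 0.12, 95% interval 0.80 to 1.32), with an adjusted p of 4.56e-05 in edgeR's quasi-likelihood test. The exact two-sided permutation p was 0.0286, the smallest that 4 samples against 4 allow. Among all genes tested, 694 had a larger log2 fold change, and 4.40% passed the test with a rise, 2.81% with a fall, of at least 1 on the log2 scale. No other annotated gene overlaps Wfs1 on either strand. Within the sequencing lanes, which held both groups, the log2 ratio of dcKO_hGFAP-Cre over control was 0.99 on lane 5, 0.76 on lane 6 and 1.5 on lane 7, where lane 5 held 2 samples of each group and the other lanes 1 of each.

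Of the 9 CA1 field genes tested, Wfs1 alone rose, 5 fell and 3 did not pass the test. Without Wfs1 the other 8 had a median log2 fold change of -0.44, where the median of all genes tested was 0.02. Lefty1 was too low to be tested. Pou3f1, a POU domain factor of CA1 and of upper layer neocortical neurons, fell from 111 ± 19.6 to 17.5 ± 4.78 CPM, a log2 fold change of -2.67 (SE 0.20). Every mutant was below every control for this gene. Fibcd1, an acetyl group-binding receptor found in CA1, fell from 15.1 ± 3.40 to 5.62 ± 1.10 CPM. Mpped1, a predicted metallophosphoesterase, fell from 1079 ± 78.6 to 439 ± 44.5 CPM. Gpr161 and Ccn3 fell by less, by 0.46 and 0.42 on the log2 scale. Dcn, which encodes the matrix proteoglycan decorin, had a log2 fold change of 1.05 that did not pass the test (95% interval -0.82 to 2.92). The summed CA1 genes measured 1378 to 1582 CPM in control and 680.4 to 774.8 CPM in dcKO_hGFAP-Cre, so that Wfs1 moved in the direction opposite to the sum of the list it belongs to. Mpped1 alone was the largest part of this sum in both groups, so the sum mostly follows that gene. Neocortical projection neuron genes fell as well, 12 of 16 tested, beside 18.9% of all genes tested. A fall was therefore not particular to the CA1 list. In bulk tissue, fewer cells of a type and less RNA per cell cannot be told apart.

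Genes of another region that makes Wfs1 were higher in the mutants beside it. Of 12 striatal neuron genes tested, 7 rose and none fell, with a median log2 fold change of 1.6. The count of 0 that fell was from edgeR, and it was also 0 at an unadjusted p under 0.05, with DESeq2 and with limma-voom, as it was for the Cajal-Retzius and choroid plexus genes below. Ppp1r1b, which encodes the phosphatase inhibitor DARPP-32 of striatal projection neurons, measured 40.0, 49.1, 34.2 and 40.0 CPM in the controls and 343, 276, 342 and 271 CPM in the mutants (replicates 1 to 4). Pdyn, the precursor of dynorphin peptides, rose from 7.11 ± 1.64 to 19.4 ± 5.84 CPM. The summed striatal genes ranged from 488.4 to 617.1 CPM in control and measured 1173, 598.3, 1174 and 833.3 CPM in dcKO_hGFAP-Cre replicates 1 to 4. In mutant replicate 2 the sum lay inside the control range, but the genes of the list were not alike there. Foxp1 and Bcl11b, transcription factors that many forebrain neurons make, measured 84.5 and 129 CPM in it, below all controls, whereas Ppp1r1b was above all controls. Isl1, a LIM homeodomain factor of striatal neurons, was at 8.94 CPM in this replicate and at most 3.30 CPM in a control, and Tac1, the precursor of substance P, was at 14.1 CPM and at most 9.76 CPM. In mutant replicates 1 to 4 Wfs1 measured 50.1, 43.1, 46.4 and 60.2 CPM. It was lowest in replicate 2 and highest in replicate 4, where the striatal sum was below that of replicates 1 and 3. None of the 12 striatal genes was at 0 in any control sample. The part of striatal tissue in the difference of Wfs1 was not tested.

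Wolframin takes part in the handling of calcium and of misfolded proteins in the endoplasmic reticulum, so its partners and the genes of the stress response there were read beside it. Of the 14 genes of this list, Wfs1 included, 2 rose, 5 fell and 7 did not pass the test, and the median log2 fold change was -0.20. The other gene that rose was Ddit3, which encodes the stress-induced transcription factor CHOP, from 11.1 ± 0.97 to 15.5 ± 1.46 CPM (log2 fold change 0.48, SE 0.12). Atp2a2, the calcium pump SERCA2 that fills the endoplasmic reticulum, fell from 557 ± 24.9 to 345 ± 46.8 CPM. Atp1b1, a subunit of the sodium pump that wolframin binds, fell from 609 ± 27.4 to 431 ± 50.4 CPM. Both were lower in every mutant than in every control, with log2 fold changes of -0.69 and -0.50. The other genes that fell were Sel1l (-0.50), Atf6 (-0.38) and Vamp2 (-0.22). Sel1l and Atf6 were also lower in every mutant than in every control, so the stress genes did not move one way. The 7 genes that did not pass, Hspa5 and Xbp1 among them, had log2 fold changes from -0.31 to 0.11.

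Prox1 (ENSMUSG00000010175; mm10 chr1:190118035-190170714, minus strand) measured 18.9, 24.8, 23.0 and 23.3 CPM in control replicates 1 to 4. In dcKO_hGFAP-Cre replicates 1 to 4 it measured 31.6, 25.3, 20.7 and 31.0 CPM. Mutant replicates 1, 2 and 4 were above the highest control and replicate 3 was among the controls, so the groups overlapped. The means were 22.5 ± 2.54 and 27.1 ± 5.16 CPM (SD, n = 4 each). The log2 fold change was 0.27 (SE 0.14, 95% interval -0.03 to 0.57), with an adjusted p of 0.144 in edgeR's quasi-likelihood test. With an exact permutation p of 0.2, these data did not settle whether Prox1 differed between the groups. The call depended on replicate 3, without which the log2 fold change was 0.38 with an adjusted p of 0.0249 in the same test. Within lanes the log2 ratio was 0.38, -0.15 and 0.42 on lanes 5, 6 and 7. Scaling by library totals in place of TMM gave 0.39 with an adjusted p of 0.04, but this scaling also moved the median of all genes tested to 0.15.

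The antisense gene Prox1os shares 133 exon bases with Prox1 on the opposite strand, and since the strand setting of the counting is not given in the sources used here, reads of the shared stretch cannot be told apart. Prox1os was low, at 0.644, 0.542, 1.03 and 0.555 CPM in the controls and 1.45, 1.61, 1.13 and 1.03 CPM in the mutants (replicates 1 to 4). Its log2 fold change of 0.88 (SE 0.28) passed the test with an adjusted p of 0.0263. The groups nevertheless overlapped, with an exact permutation p of 0.0571. The call was lost in 5 of the 8 fits that left out 1 sample, namely those without control replicates 1, 2 or 4 or dcKO_hGFAP-Cre replicates 1 or 2, where the adjusted p reached up to 0.08.

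C1ql2 (ENSMUSG00000036907; mm10 chr1:120340582-120343174, plus strand) was close to the limit of detection. Its raw counts were 7, 8, 22 and 15 in the controls and 15, 22, 28 and 24 in the mutants (replicates 1 to 4). These correspond to 0.322, 0.394, 0.730 and 0.521 CPM in control and 0.641, 0.932, 0.955 and 0.725 CPM in dcKO_hGFAP-Cre, where 3 counts equal 0.0906 to 0.148 CPM depending on the library. Mutant replicates 2 and 3 were above the highest control, and replicates 1 and 4 lay between the controls. The means were 0.492 ± 0.179 and 0.813 ± 0.155 CPM (SD, n = 4 each). The log2 fold change was 0.68 (SE 0.30, 95% interval 0.03 to 1.34), with an unadjusted p of 0.0429 and an adjusted p of 0.0946 in edgeR's quasi-likelihood test. The exact permutation p was 0.0857. Without control replicate 3, the control with the most counts of the gene, the log2 fold change was 0.95 with an adjusted p of 0.0492, and with library totals it was 0.81 with an adjusted p of 0.0478. These data did not settle whether C1ql2 differed between the groups.

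The other dentate granule cell genes did not move one way. Of the 18 genes tested, 5 rose, 5 fell and 8, with Prox1 and C1ql2 among them, did not pass the test. Beside this, 18.6% of all genes tested rose and 18.9% fell. The median log2 fold change of the 18 genes was -0.03. Calb1, the calcium-binding protein calbindin of granule cells and of several other neurons, measured 25.5, 24.8, 31.4 and 25.3 CPM in control and 71.9, 64.2, 58.6 and 67.2 CPM in dcKO_hGFAP-Cre replicates 1 to 4. It was higher in every mutant, with a log2 fold change of 1.29 (SE 0.10) and an adjusted p of 3.2e-06. Dsp, which encodes the junction protein desmoplakin, rose from 1.45 ± 0.30 to 3.07 ± 0.48 CPM. Neurod1, a basic helix-loop-helix factor that drives the differentiation of granule cells, rose from 18.9 ± 1.74 to 29.7 ± 5.99 CPM (log2 fold change 0.65, SE 0.14). Neurod1 is also in the list of intermediate progenitor and immature neuron genes and is counted there too. Among the genes that fell were C1ql3, the C1q-like relative that is released together with C1ql2, and Ncald, a neuronal calcium sensor with a log2 fold change of -0.58. Pdzd2, a PDZ domain protein, and Lct, the lactase gene that marks granule cells, had log2 fold changes of -0.95 and -1.22. Leaving out 1 sample at a time moved the counts to between 4 and 6 in each direction. The summed dentate genes ranged from 701.2 to 741.1 CPM in control and from 566.3 to 613.4 CPM in dcKO_hGFAP-Cre. Ncald, at 367 ± 17.7 and 246 ± 27.2 CPM, was the largest part of this sum in both groups.

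**Figure D2:**
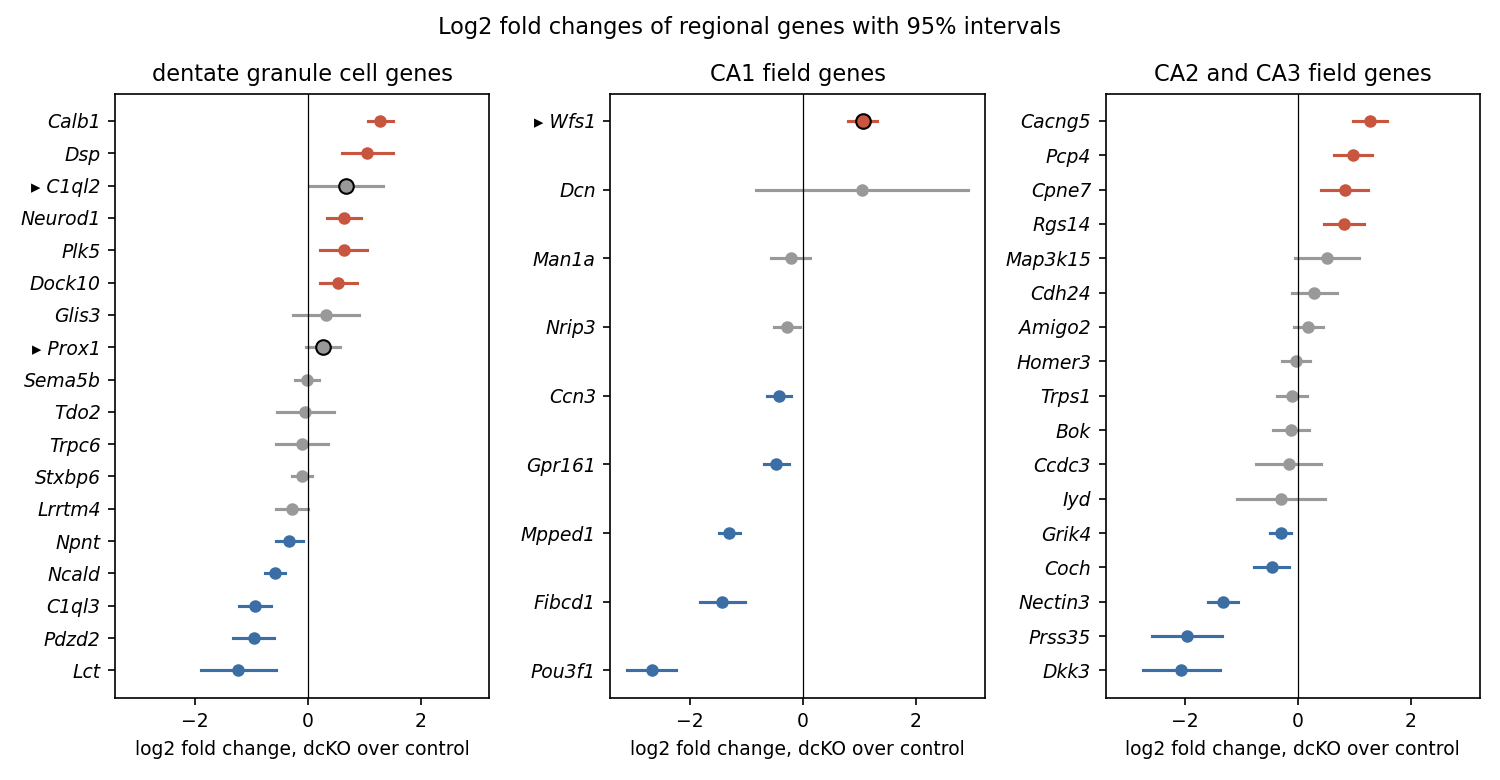
Log2 fold changes (dcKO_hGFAP-Cre over control, edgeR) with 95% intervals for the tested dentate granule cell, CA1 and CA2 and CA3 genes, with red for genes that rose, blue for genes that fell and grey for genes that did not pass the test, and triangles at Prox1, C1ql2 and Wfs1. Wfs1 stands at 1.06 above 5 CA1 genes that fell, while Prox1 and C1ql2 stand among dentate genes on both sides of 0.

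The CA2 and CA3 fields likewise held genes of both directions. Of 17 genes tested, 4 rose, 5 fell and 8 did not pass the test, and the median log2 fold change was -0.10. Among all genes tested 18.6% rose and 18.9% fell, so genes of both directions are not particular to these fields. Cacng5, an auxiliary subunit of AMPA receptors, rose from 18.6 ± 0.87 to 45.0 ± 9.19 CPM, and Pcp4, a calmodulin-binding protein of CA2, rose from 16.8 ± 1.12 to 32.9 ± 8.43 CPM. Nectin3, a cell adhesion protein, fell from 73.6 ± 1.29 to 29.3 ± 5.82 CPM. Prss35, a secreted protease-like protein, fell from 16.8 ± 1.82 to 4.26 ± 2.04 CPM. The difference between the hippocampal fields was not tested.

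The C1q-like relatives of C1ql2 did not all go one way, and the differences between them were not tested. C1ql3 measured 8.61, 9.76, 9.0 and 7.67 CPM in control and 4.36, 4.45, 4.71 and 4.86 CPM in dcKO_hGFAP-Cre replicates 1 to 4, a log2 fold change of -0.93 (SE 0.13) with an adjusted p of 0.000221. C1ql1, the relative known from climbing fibres of the cerebellum, measured 6.44, 6.75, 6.64 and 7.19 CPM in control and 2.61, 3.98, 4.26 and 2.66 CPM in dcKO_hGFAP-Cre replicates 1 to 4, a log2 fold change of -1.0 (SE 0.18). Both were lower in every mutant than in every control. C1ql4 was too low to be tested, with 0, 0, 1 and 1 counts in control and 3, 2, 3 and 7 counts in dcKO_hGFAP-Cre replicates 1 to 4, every mutant being above every control. Of the synaptic partners, Adgrb3, the adhesion receptor that binds these proteins, fell from 204 ± 4.33 to 155 ± 12.2 CPM. Grik4, a kainate receptor subunit of mossy fibre synapses, fell from 25.5 ± 0.55 to 20.6 ± 0.95 CPM. Grik2, another kainate receptor subunit, rose from 74.0 ± 8.84 to 134 ± 13.2 CPM (log2 fold change 0.86, SE 0.10). The presynaptic partner Nrxn3 had a log2 fold change of -0.08 that did not pass the test and that turned to 0.0436 with library totals. In all, 1 of the 7 tested genes rose and 4 fell. Without control replicate 3, or with library totals, 2 rose, C1ql2 being the second.

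Zbtb20 (ENSMUSG00000022708; mm10 chr16:42875881-43642602, plus strand) measured 80.6, 91.9, 78.2 and 59.9 CPM in control replicates 1 to 4. In dcKO_hGFAP-Cre replicates 1 to 4 it measured 92.1, 69.2, 89.4 and 87.2 CPM. The groups overlapped almost whole, and only mutant replicate 1 was above the highest control. The means were 77.7 ± 13.3 and 84.5 ± 10.4 CPM (SD, n = 4 each), with a log2 fold change of 0.12 (SE 0.13, 95% interval -0.15 to 0.40). The adjusted p was 0.471 in edgeR's quasi-likelihood test and the exact permutation p was 0.457, so no difference was detectable at this spread. Within lanes the log2 ratio was -0.10, 0.19 and 0.54 on lanes 5, 6 and 7. Zbtb20 is annotated with 21 transcripts, and 9 other genes lie in its span, of which Gm9968 and Mir568 share 104 and 83 exon bases with it. Gm9968 was below 0.2 CPM in every sample and was not tested.

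Genes of the hippocampal primordium and cortical hem moved in both directions, beside Zbtb20. Of 21 genes tested, 10 rose, 4 fell and 7 did not pass the test, Zbtb20 among these, and the median log2 fold change was 0.30. Lhx9, a LIM homeodomain factor of the early medial pallium and also of the thalamus, rose from 2.0 ± 0.80 to 12.9 ± 3.09 CPM. Axin2, a gene switched on by Wnt signalling, rose from 29.4 ± 3.13 to 44.7 ± 3.11 CPM. Nfix, a nuclear factor I protein needed for hippocampal growth, fell from 1166 ± 60.0 to 471.8 ± 29.6 CPM, a log2 fold change of -1.31 (SE 0.07). Emx1, a homeodomain factor of the whole pallium, fell from 44.1 ± 8.58 to 10.03 ± 2.18 CPM. The summed list measured 1871 to 2006 CPM in control and 1177 to 1285 CPM in dcKO_hGFAP-Cre, a lower sum although more of its genes rose than fell. Nfix alone was the largest part of this sum in both groups, so the sum mostly follows that gene.

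Neocortical projection neuron genes were counted as the tissue around the hippocampus, of which 12 of 16 fell and none rose in edgeR, with a median log2 fold change of -0.64. At an unadjusted p under 0.05 it was 1 that rose, and DESeq2 and limma-voom each called 0. Zbtb18, a zinc finger repressor of pyramidal neurons, fell from 1271 ± 49.5 to 394 ± 25.8 CPM, and Met, a receptor tyrosine kinase of projection neurons, fell from 114 ± 10.2 to 23.7 ± 3.35 CPM. Without dcKO_hGFAP-Cre replicate 2, 2 of the 16 genes rose.

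Levels between genes are compared per length, as RPKM on the union of the annotated exons. Wfs1 had the highest level of the 4 hippocampal genes, at 6.32 ± 0.75 RPKM in control and 13.2 ± 1.96 RPKM in dcKO_hGFAP-Cre. Prox1 followed at 2.68 ± 0.30 and 3.24 ± 0.62 RPKM and Zbtb20 at 2.53 ± 0.43 and 2.75 ± 0.34 RPKM. Prox1 and Zbtb20 overlapped in both groups, and with the longest transcript as length their order turned in control (2.84 and 2.89 RPKM). C1ql2 was lowest, at 0.246 ± 0.089 RPKM in control and 0.407 ± 0.077 RPKM in dcKO_hGFAP-Cre.

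**Figure D3:**
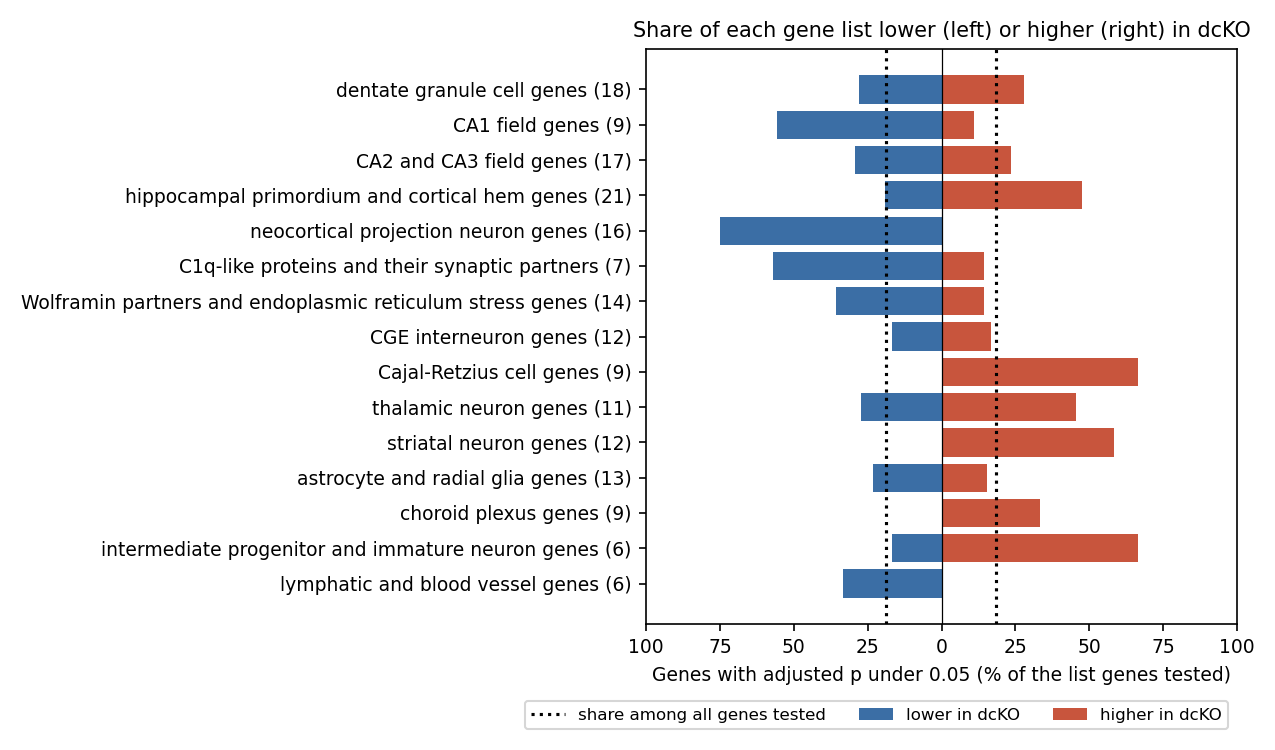
Share of each gene list, in % of its genes tested (number in brackets), that was lower (blue, left) or higher (red, right) in dcKO_hGFAP-Cre at an adjusted p under 0.05, with dotted lines at the shares among all genes tested, 18.9% lower and 18.6% higher. The neocortical, C1q-like and CA1 lists reach furthest to the left and the Cajal-Retzius, striatal and intermediate progenitor lists to the right.

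Prox1 is also made outside the hippocampus, so the markers of those cells were read beside it. CGE interneuron genes numbered 12 tested, of which 2 rose, 2 fell and 8, with Prox1, Vip and Htr3a among them, did not pass. These counts are near the shares of all genes tested, of which 18.6% rose and 18.9% fell. Calb2, which encodes calretinin, rose from 20.5 ± 1.16 to 60.1 ± 15.7 CPM, while Cnr1, the cannabinoid receptor, fell from 309 ± 22.3 to 208 ± 11.2 CPM. Calb2 is also in the Cajal-Retzius and thalamic lists and is counted among the genes that rose in each. The number of CGE genes that rose was 1 without dcKO_hGFAP-Cre replicate 1 or 2 or without control replicate 3 or 4, and 4 without dcKO_hGFAP-Cre replicate 3 or with library totals. Their sum overlapped between groups, at 727.5 to 967.6 CPM in control and 732.8 to 937.8 CPM in dcKO_hGFAP-Cre. Of 11 thalamic neuron genes, 5 rose and 3 fell, and Gbx2, a homeobox gene of the thalamus, went from at most 1 count in a control sample to between 32 and 50 counts in each mutant. The summed thalamic genes measured 407 to 428.4 CPM in control and 366.9 to 397.6 CPM in dcKO_hGFAP-Cre. The thalamic genes that fell were Lhx2, Cdh8 and Rora. Lhx2, which is also in the primordium and hem list, was the largest part of the control sum. It fell from 145.9 ± 22.9 to 51.25 ± 10.7 CPM. Of 6 lymphatic and blood vessel genes, 2 fell and none rose in edgeR, where 1 had a rise at an unadjusted p under 0.05 and DESeq2 and limma-voom called 0. In this list 1 gene rose without dcKO_hGFAP-Cre replicate 4 or without control replicate 3. Pecam1, an adhesion protein of endothelium, fell from 22.2 ± 1.24 to 14.1 ± 2.74 CPM, and Flt4 fell from 7.35 ± 0.85 to 4.83 ± 0.80 CPM. Lyve1 was the gene with a rise at an unadjusted p under 0.05 in edgeR, from 0.821 ± 0.672 to 3.0 ± 2.08 CPM. Its adjusted p of 0.093 in that test did not pass, and Pdpn had a log2 fold change of -0.01. The part of these cells in the level of Prox1 was not tested.

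Other cell types that the tissue can hold moved with the groups or with single mutants. Of 9 Cajal-Retzius cell genes, 6 rose, Calb2 among them, and none fell, with Lhx1, a LIM homeodomain factor, at 1.37 ± 0.34 and 5.13 ± 2.14 CPM. Of 6 tested genes of intermediate progenitors and immature neurons, 4 rose, Neurod1 among them, and 1 fell. Neurog2, a proneural factor, rose from 1.94 ± 0.38 to 12.7 ± 2.12 CPM. Dcx, which encodes doublecortin of migrating neurons, fell from 1727 ± 151 to 1133 ± 143 CPM. Of 13 astrocyte and radial glia genes, which bear on Zbtb20, 2 rose and 3 fell, but 9 fell without dcKO_hGFAP-Cre replicate 3. Their sum was 2228 to 2325 CPM in control and 1752, 1879, 3309 and 1512 CPM in dcKO_hGFAP-Cre replicates 1 to 4, so that replicate 3 was above and the others below all controls. Zbtb20 itself was at 89.4 CPM in that replicate, between the other mutants. Choroid plexus genes summed to 9.79 to 18.2 CPM in control and to 633.8, 1204, 27.3 and 14.0 CPM in dcKO_hGFAP-Cre replicates 1 to 4. Of the 9 tested, 3 rose and none fell, but the number that rose was 1 without any single control or without dcKO_hGFAP-Cre replicate 1 or 2, 6 without replicate 3 and 7 without replicate 4. Without dcKO_hGFAP-Cre replicates 1 and 2, a choice made after the data were seen, the log2 fold change was 1.16 for Wfs1 (adjusted p of 0.00081), 0.21 for Prox1, 0.73 for C1ql2 and 0.19 for Zbtb20, the last 3 again not past the test.

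**Figure D4:**
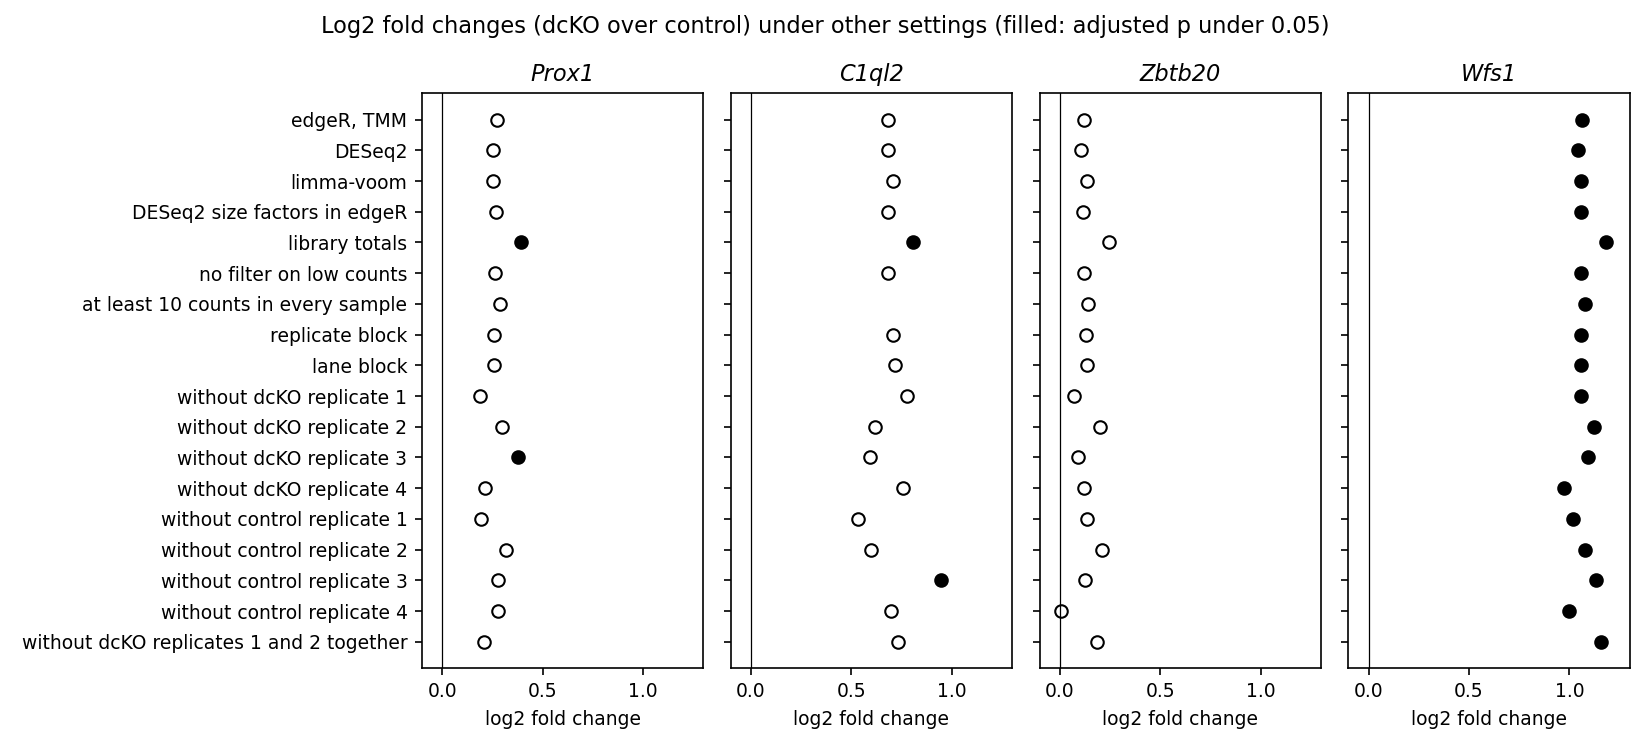
Log2 fold changes (dcKO_hGFAP-Cre over control) of Prox1, C1ql2, Zbtb20 and Wfs1 under each setting, filled where the adjusted p was under 0.05. Wfs1 stays between 0.97 and 1.18 and is filled in every row, Prox1 and C1ql2 are each filled in 2 rows, and Zbtb20 in none.

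Over the 8 samples, Pearson correlations of log2(CPM + 1) between pairs of them ranged from -0.02 for Zbtb20 and C1ql2 to 0.71 for Wfs1 and C1ql2. The latter was 0.00 for deviations from the group means, so that it held between the groups and not within them. Prox1 and Wfs1 had 0.66 over the samples and 0.58 for the deviations. The genes most alike to each were sought among 14609 genes with a mean of at least 1 CPM (14610 for C1ql2), by the same correlation over 8 samples, in which the difference between groups also counts. For Wfs1 these were Ypel2 (r = 0.99), Aldh3a2 (0.99) and Fam114a2 (0.98). For Prox1 they were Chrm2 (0.97), a muscarinic acetylcholine receptor, Smarca1 (0.96), the SNF2L ATPase of another family of chromatin remodellers, and Lyrm9 (0.96). For Zbtb20 they were Aste1 (0.96), Pot1b (0.90) and Gm14681 (0.90), and for C1ql2 Tmem138 (0.97), Slc25a45 (0.95) and Fnta (0.95). These values are the highest of many candidates over 8 points and are given as a description.

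The start regions of the genes differed in base composition. In windows of 300 bases around the annotated start (RefSeq, GRCm38.p6, 250 bases before and 50 after it), Wfs1 had 70% GC and 30 CpG, C1ql2 67.3% and 23, and the upstream of the annotated starts of Prox1 64.3% and 25. The other start of Prox1 had 57.3% GC and 14 CpG. The window of Zbtb20, which lies inside the span of its longer transcripts, had 43.3% GC and 3 CpG. The medians of all 32851 such windows were 52.7% GC and 7 CpG, so the start of Zbtb20 was the only one on the poor side. The 250 bases before the start are shown, so that the CpG-rich starts of both dentate genes can be read against that of Zbtb20, for the 3 genes where they touch no annotated exon. They are printed 5′ to 3′ on the strand of the gene, in lower case with the letters CANNTG, the E-box bound by basic helix-loop-helix factors such as Neurod1, in capitals. These letters read the same on both strands and are found in 72.3% of all windows, so their presence is a description of these windows alone.
C1ql2 (chr1:120340332-120340581, plus strand): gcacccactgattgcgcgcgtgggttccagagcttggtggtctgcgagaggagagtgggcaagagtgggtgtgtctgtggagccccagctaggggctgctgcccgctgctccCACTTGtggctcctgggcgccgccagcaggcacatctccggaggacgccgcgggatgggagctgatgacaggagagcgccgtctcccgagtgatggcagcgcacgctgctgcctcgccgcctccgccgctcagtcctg
Prox1 (chr1:190170828-190171077, minus strand): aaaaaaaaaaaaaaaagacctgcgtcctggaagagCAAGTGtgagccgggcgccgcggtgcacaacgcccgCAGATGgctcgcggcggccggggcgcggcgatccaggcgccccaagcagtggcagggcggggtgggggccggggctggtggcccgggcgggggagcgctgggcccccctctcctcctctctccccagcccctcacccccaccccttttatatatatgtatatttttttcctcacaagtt
Zbtb20 (chr16:43247034-43247283, plus strand): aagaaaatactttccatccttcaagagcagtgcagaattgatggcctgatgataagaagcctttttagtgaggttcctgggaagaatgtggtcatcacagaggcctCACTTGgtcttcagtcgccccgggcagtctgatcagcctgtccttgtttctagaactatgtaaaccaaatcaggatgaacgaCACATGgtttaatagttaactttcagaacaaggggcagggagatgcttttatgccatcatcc
The windows of C1ql2, Wfs1 and the upstream start of Prox1 had 23 to 30 CpG. A relation of base composition to the difference between the groups was not tested.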

How the data were processed

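Cortical total RNA from 4 dcKO_hGFAP-Cre mice and 4 controls at P3 had been extracted with TRIZOL and sequenced from TruSeq v2 libraries. The authors used the mm10 genome and featureCounts, and deposited raw counts per gene, 1 file per sample, with no normalization. Aligner, annotation, strand setting and the handling of multimapped reads are not given in the sources used here. Identifiers were matched to GENCODE M21, which held 48349 of the 48709 genes.

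Counts were scaled with TMM and tested with the quasi-likelihood F test of edgeR 4.0.16 (R 4.3.3) without covariates, after the default filter on low counts (minimum count 10), with Benjamini-Hochberg adjustment over the 16525 genes tested. The standard error of each log2 fold change was derived from its F statistic. Permutation tests (exact, two-sided, 70 arrangements) used CPM. Nothing in the labels says that replicates came from separate litters, so p-values set the group difference against the spread between these samples alone. No pair of replicates agreed within sampling noise, and each was counted once. The scripts were tested on simulated data.

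The members and the 15 gene lists (dentate, CA1, CA2 and CA3, primordium and hem, neocortical, C1q-like, wolframin, CGE, Cajal-Retzius, thalamic, striatal, astrocyte, choroid plexus, intermediate progenitor and vessel genes) were chosen with earlier results of these data known. Named were the 4 genes, Smarcc1 and Smarcc2, up to 2 genes of each list with the smallest p among those that rose and those that fell, genes of the dentate, CA and C1q-like lists, markers beside a result, and the 3 genes most correlated with each member. Prox1os and Gm9968, which overlap members, were added. A gene of the CA1 list is not reported here and was left out of its counts. Gene lists are described by counts and medians, with no test of the list. Alternatives were DESeq2 1.42.0, limma-voom (limma 3.58.1), other scalings and filters, the replicate or lane as a block, and each sample left out in turn. RefSeq sequences (GRCm38.p6) gave the start windows. Intervals are 95% intervals of the log2 fold change, set from the spread between these samples, and 3 counts were taken as the floor of detection.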

Additional observations from a re-analysis of the deposited data

How the results depend on the processing

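Wfs1 kept its direction and its side of the threshold under every alternative tried, with log2 fold changes of 0.97 to 1.13 when 1 sample was left out and 1.04 to 1.18 otherwise. Zbtb20 passed the test under none of them and ranged from 0.01 to 0.21 when 1 sample was left out. Prox1 ranged from 0.19 to 0.38 and C1ql2 from 0.53 to 0.95 when 1 sample was left out; Prox1 passed without dcKO_hGFAP-Cre replicate 3 and C1ql2 without control replicate 3. The TMM factors were 0.944 to 0.984 in control and 1.03 to 1.06 in dcKO_hGFAP-Cre. With library totals in place of TMM, which moved the median over all genes from 0.02 to 0.15 (log2), Prox1 (0.39) and C1ql2 (0.81) passed, Nrxn3 turned to 0.0436, the CA2 and CA3 genes that fell numbered 3, the C1q-like genes that rose 2, the CGE genes that rose 4 and the thalamic genes that fell 1. C1ql2 was not tested where at least 10 counts in every sample were asked for.

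With the replicate number as a block the log2 fold changes were 0.26 for Prox1, 0.13 for Zbtb20, 1.06 for Wfs1 and 0.71 for C1ql2, none of which changed its call, and 1 vessel gene rose. Samples with the same number shared a lane. Their deviations from the group means had correlations of 0.18, -0.12, 0.18 and -0.08 for replicates 1 to 4. These values do not settle whether the numbers pair the samples. When 1 sample was left out, the genes that rose numbered 0 to 2 in the neocortical list, 1 to 2 in the C1q-like list, 1 to 4 in the CGE list, 1 to 7 in the choroid plexus list and 0 to 1 in the vessel list, and the astrocyte genes that fell 2 to 9. Over all genes, these fits gave 2375 to 3273 lower and 2199 to 3308 higher genes, and library totals gave 2102 lower and 4584 higher. A pair of alternatives was chosen after seeing the data: without dcKO_hGFAP-Cre replicates 1 and 2 together, 1581 genes were lower and 1388 higher, and without the 4 members themselves, no CA1 gene and 1 gene of the wolframin list rose. The causes of these shifts were not tested. C1ql2 had only 7 to 28 counts per sample.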
